A study of Mus musculus with 9 samples.

Results

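The cells described here are oligodendrocyte progenitors (OPCs) of the dentate gyrus (DG) that carried the platelet-derived growth factor receptor gene Pdgfra and little or no Gpr17, the receptor gene that marks progenitors committed to becoming oligodendrocytes. They were taken from barcodes with at least 1500 unique molecular identifiers (UMIs, counts of captured transcripts) and at most 10% mitochondrial UMIs, and had at least 1 UMI of Pdgfra, at most 1 of Gpr17 and none of the myelin gene Mog. The rule found 476 cells among the 2437 barcodes of the 3 DG libraries, in a series of 7402 barcodes and 9 libraries. All mice were heterozygous Dcx-GFP animals, in which the promoter of doublecortin (Dcx), a microtubule gene of young neurons, drives green fluorescent protein. The DG, subventricular zone (SVZ) and olfactory bulb (OB) of adult (3 months), middle-aged (14 months) and aged (24 months) mice were dissociated, and every library held only cells sorted as GFP+. Each library pooled the tissue of several mice of an age, so that there was 1 library per region and age, the 3 regions of an age came from the same animals, and no treatment was given.

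OPCs are the dividing glial precursors of the adult brain. They populate grey and white matter, receive synaptic input, hold their number by local division, and can leave the cycle to become myelinating oligodendrocytes. Pdgfra carries the mitogenic signal of PDGF, the chondroitin sulphate proteoglycans around the cell form its characteristic surface matrix, and Notch and Id factors hold back differentiation. Gpr17 comes on briefly during commitment and is lost again in myelinating cells. OPCs are not part of the neuronal lineage for which the Dcx reporter was made.

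The DG libraries of 3, 14 and 24 months gave 20, 358 and 98 such cells. These were 2.85% of 702 barcodes within the depth and mitochondrial limits at 3 months (exact Clopper-Pearson 95% interval 1.75 to 4.37%), 34.6% of 1035 at 14 months (31.7 to 37.6%) and 33.8% of 290 at 24 months (28.4 to 39.6%). The shares of both older libraries lay close together and above the youngest, but there was 1 library per age, so this is a description of 3 libraries and the intervals cover counting error only. The sort and the other cells in each library also set these shares. Cells with a UMI of Eomes or Neurod1, the genes of the granule neuron lineage, numbered 205, 30 and 5, and cells with both astrocyte genes Gjb6 and Aqp4 numbered 195, 188 and 43. Both classes, here and below, were chosen to have no UMI of Pdgfra, Gpr17 or Mog. The class with Eomes or Neurod1 also had none of Gjb6. Their low levels of OPC genes are thus partly set by this choice. OPCs with 2 or more Gpr17 UMIs numbered 26, 283 and 107.

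**Figure D1:**
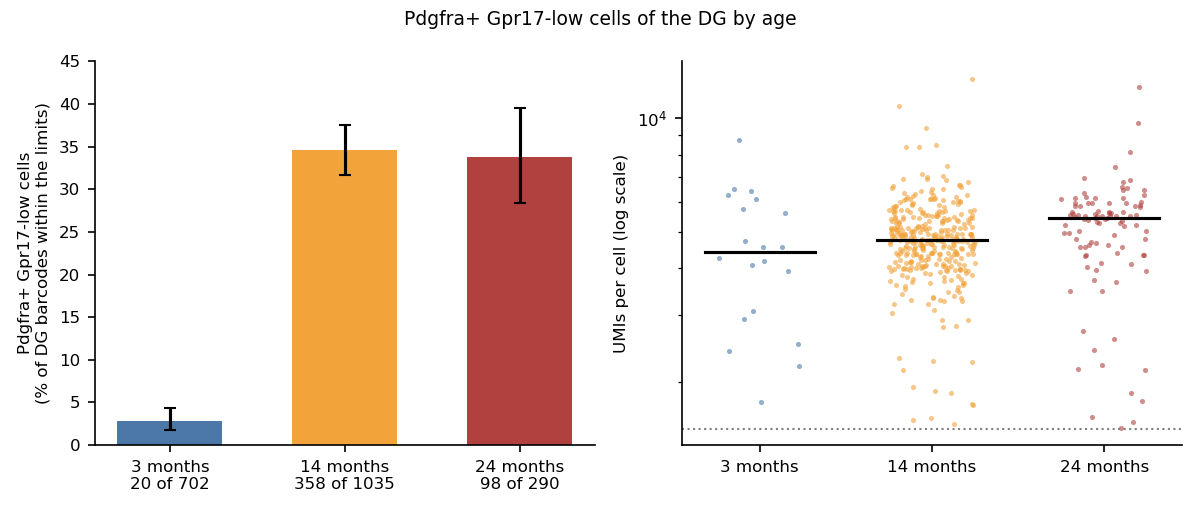
Left, cells under the rule as a percentage of DG barcodes within the depth and mitochondrial limits at each age, with exact 95% binomial intervals that cover counting error. Right, UMIs per cell on a log scale, each point 1 cell, the line the median (4404, 4759 and 5417.5 at 3, 14 and 24 months) and the dotted line the limit of 1500. The 3-month library held 20 cells against 358 and 98.

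Depth was similar across ages. The summed counts were 90567 UMIs at 3 months, 1719247 at 14 months and 501299 at 24 months, out of library totals of 3869007, 5132146 and 1544351. The median cell held 2.14%, 2.38% and 2.53% mitochondrial UMIs. The quality control described for the study set a limit of 1.5% mitochondrial genes, after normalized log counts had been loaded. That measure may differ from the share of raw UMIs used here. By raw UMIs, 19 of 20, 344 of 358 and 94 of 98 of the cells lay above 1.5%. The study did retain OPCs and scaled its cell numbers to them, so these counts do not show which cells it left out. The 3-month sum is the shallowest, and a gene without any UMI there could still lie at up to 33.1 CPM (UMIs of a gene scaled to a common total per library sum), the level of 3 UMIs, against 1.74 CPM at 14 months and 5.98 CPM at 24 months. No barcode was chosen in more than 1 library, and no pair of libraries shared more than 3 barcodes. Scrublet, a doublet caller, marked 0, 9 and 10 of the chosen cells, and 7, 20 and 30 of all barcodes in the 3 libraries, and these cells were kept.

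The sex makeup of the recovered cells moved with age. Xist, the RNA of the inactive X chromosome, was detected in 2 of 20 cells (10.0%) at 3 months, 118 of 358 (33%) at 14 months and 54 of 98 (55.1%) at 24 months. The remaining DG barcodes followed the same order, with 20.5%, 35.9% and 63.0%. Y-linked genes (Ddx3y, Eif2s3y, Uty and Kdm5d) ran the other way, from 60.0% of the OPCs at 3 months to 32.1% and 23.5%. In the SVZ cells chosen by the same rule from the same pools, Xist was found in 52.6%, 54.2% and 56.8%. In the remaining SVZ barcodes its share rose with age as in the DG, with 27.2%, 42.3% and 50.6%. The methods describe both sexes as evenly spread over the ages. In the DG cells recovered here, age and the sex of the cells moved together. Both sexes were detected at each age, but the ages were not compared within a sex.

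Genes that the rule did not use marked these cells as OPCs. The 3 further OPC markers are C1ql1, a secreted C1q-like protein (11:102939264-102946688, minus strand, build mm10), Matn4, a matrix matrilin (2:164389393-164405160, minus strand), and Lhfpl3, a tetraspan membrane protein (5:22746059-23275597, plus strand), beside Pdgfra itself (5:75152292-75198215, plus strand). C1ql1 was detected in 17, 343 and 89 of the cells at 3, 14 and 24 months, Matn4 in 19, 345 and 94, and Lhfpl3 in 18, 337 and 90. In the cells with Gjb6 and Aqp4 of the same libraries, which should lack them, Matn4 was seen in 4 of 195, 14 of 188 and 4 of 43 at similar median depths of 4117, 4261 and 3921 UMIs. At least 2 of the 3 markers were present in 19, 345 and 95 cells (459 of 476), and all 3 in 427. None of the 3 was detected in 10 cells.

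Levels of the transcription factors of the lineage lay far above those of the astrocyte class. Olig1 summed to 3633, 4001 and 4369 CPM at 3, 14 and 24 months, against 54.6, 93.6 and 107 CPM in the cells with Gjb6 and Aqp4. Olig2 reached 1093, 1202 and 1097 CPM and Sox10 497, 434 and 537 CPM. Cspg4, the NG2 proteoglycan by which OPCs are often stained, stood at 309, 276 and 303 CPM. Across the whole list of 18 OPC identity genes the summed level was 19455, 20042 and 20952 CPM, against 6424, 5883 and 5835 CPM in the cells with Gjb6 and Aqp4. This list includes Pdgfra, which the rule required here and which the cells with Gjb6 and Aqp4 were chosen to lack. That part of the gap was fixed by the choice of cells.

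**Figure D2:**
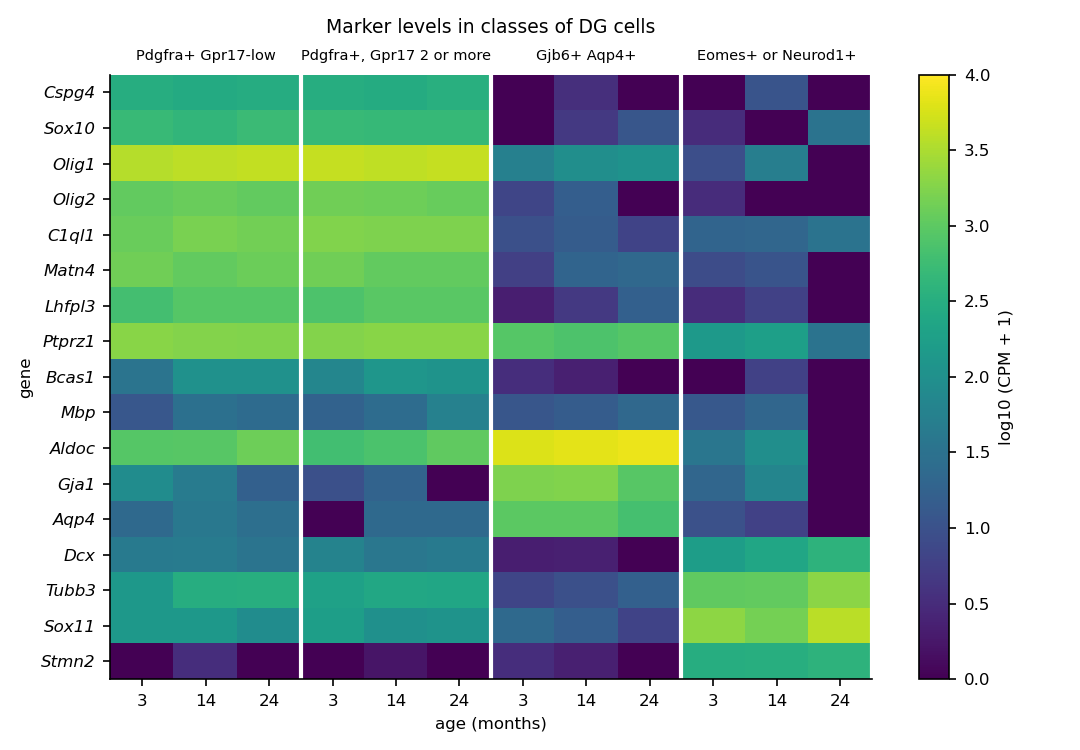
Heat map of the summed level of 17 marker genes (log10 of CPM + 1) in 4 classes of DG cells at 3, 14 and 24 months. Classes were defined by UMIs of the genes in their names and by absent UMIs of others. Cells of the Pdgfra+ classes had no Mog, and those of the other classes had no Pdgfra, Gpr17 or Mog. The Eomes+ or Neurod1+ class also had no Gjb6. Oligodendrocyte lineage genes are bright in the Pdgfra+ classes at each age, astrocyte genes in the Gjb6+ Aqp4+ class and neuronal genes in the Eomes+ or Neurod1+ class, which held only 5 cells at 24 months.

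Microglial, vascular and fibroblast genes were low or absent, while some genes of the astrocyte and neuroblast lists were not. Of 10 microglial genes 9, 6 and 9 were at 0 UMIs in the 3 libraries, with C1qa at 0 at every age. Endothelial and mural genes summed to 11.0, 3.49 and 12.0 CPM. The fibroblast genes Col1a2 and Dcn were at 0 in each library, which matters here because meningeal fibroblasts also carry Pdgfra, and the list's sum of 155, 119 and 213 CPM came mostly from Igfbp2. Astrocyte and radial stem cell genes were present at 5134, 4668 and 4534 CPM. Their most abundant members were Fabp7 at 3 and 14 months and Aldoc at 24 months, both of which OPCs also express. Neuroblast and immature neuron genes summed to 3456, 3438 and 3208 CPM, against 1316, 1186 and 1194 CPM in the cells with Gjb6 and Aqp4 and 19191, 17525 and 29675 CPM in those with Eomes or Neurod1, with Tubb2b the most abundant at each age.

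Of the defining astrocyte genes, Gja1 sat in few cells and others less so. Gja1, the main astrocyte gap junction gene, gave 8, 79 and 8 UMIs in all, of which 8, 74 and 7 came from the 1, 13 and 3 cells that had fewer than 2 of the 3 further OPC markers. Those 17 cells held 5.03%, 4.8% and 3.12% of the UMIs. They held 4 of 4, 31 of 40 and 1 of 5 Gjb6 UMIs, and 0 of 2, 38 of 66 and 4 of 14 of Aqp4. They are kept below, and the comparisons of Dcx classes, ages and regions are also given without them.

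The Gpr17 limit cut through a continuum in the 14-month library, and less evenly in the others. Of the chosen cells 237 had no Gpr17 UMI and 239 had 1. In the 14-month library, C1ql1 stood at 1491 CPM in cells without Gpr17, 1658 CPM in those with 1 UMI (just inside the limit), 1661 CPM in those with 2 (just outside) and 1708 CPM in those with 3 to 9. Serpine2, a protease inhibitor of OPCs, was at 2846, 2877, 2900 and 2756 CPM across the same classes. At 3 months, with few cells per class, C1ql1 was at 1389, 1039, 1633 and 1779 CPM. At 24 months it was at 1153, 1566, 1632 and 1749 CPM. On the Pdgfra side, 2, 48 and 13 of the chosen cells had a single Pdgfra UMI, and 5, 18 and 1 cells without Pdgfra carried at least 2 of the 3 further markers. Just under the depth limit, 4, 14 and 7 further barcodes would otherwise have qualified.

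Among the commitment genes, the earliest marks of new oligodendrocytes were sparse and others were not. Leaving out Gpr17, by which the cells were chosen, the list summed to 1480 CPM at 3 months, 2132 CPM at 14 months and 2035 CPM at 24 months, with 2100, 2266 and 2535 CPM in the OPCs with 2 or more Gpr17 UMIs. Sirt2, a deacetylase gene of the oligodendrocyte lineage, stood at 607, 872 and 840 CPM. Enpp6, a marker of newly forming oligodendrocytes, had 0 UMIs at every age, which allows at most 33.1, 1.74 and 5.98 CPM. Bmp4, expressed on commitment, had 1, 16 and 5 UMIs. Bcas1, a gene of early myelinating cells, gave 3, 181 and 53 UMIs (33.1, 105 and 106 CPM), and Lims2, an adhesion adaptor gene, stood at 199, 410 and 293 CPM. Mbp, the myelin basic protein gene, gave 1, 50 and 12 UMIs. The most abundant myelin-list gene was Cryab, a small heat shock protein gene, at 386, 573 and 606 CPM. Beyond the 2-fold limit used for ages below, 1 of 8 commitment genes was higher at 24 over 3 months (Bcas1), 2 of 11 at 14 over 3 months (Bcas1 and Lims2) and 0 of 11 at 24 over 14 months, beside 3.8%, 6.86% and 0.817% of all genes. The commitment counts include Gpr17, which the rule held to at most 1 UMI per cell. Of the myelin genes 0 of 3, 0 of 5 and 0 of 5 passed.

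Dcx messenger RNA itself (X:143855842-143933311, minus strand) was rare in these GFP-sorted cells. It was detected in 4 of 20 cells at 3 months (20%, exact 95% interval 5.73 to 43.7%), 75 of 358 at 14 months (20.9%, 16.9 to 25.5%) and 12 of 98 at 24 months (12.2%, 6.49 to 20.4%). The intervals of the 3 libraries overlap. Among cells with at least 2 of the 3 further OPC markers the shares were 21.1%, 21.7% and 12.6%. Thinned to 1500 UMIs each, the expected shares were 6.84%, 7.40% and 3.95%. A single UMI was usual: all 4 detected cells at 3 months, 71 of 75 at 14 months and 8 of 12 at 24 months had just 1.

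The detection was above the level in DG astrocytes. Only 1 of 195, 1 of 188 and 0 of 43 cells with Gjb6 and Aqp4 had a Dcx UMI, at median depths of 4117, 4261 and 3921 UMIs. These cells were also sorted as GFP+, and the part of free RNA in the droplets was not tested. OPCs with 2 or more Gpr17 UMIs reached 26.9%, 18.4% and 21.5%, values whose intervals overlap those of the Gpr17-low cells. In cells with Eomes or Neurod1 the shares were 54.1%, 70.0% and 80.0% at median depths of 6162, 6458 and 7484 UMIs. Summed levels told the same order, with Dcx at 44.2, 46.0 and 33.9 CPM in the Gpr17-low OPCs and 165, 231 and 391 CPM in the cells with Eomes or Neurod1.

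**Figure D3:**
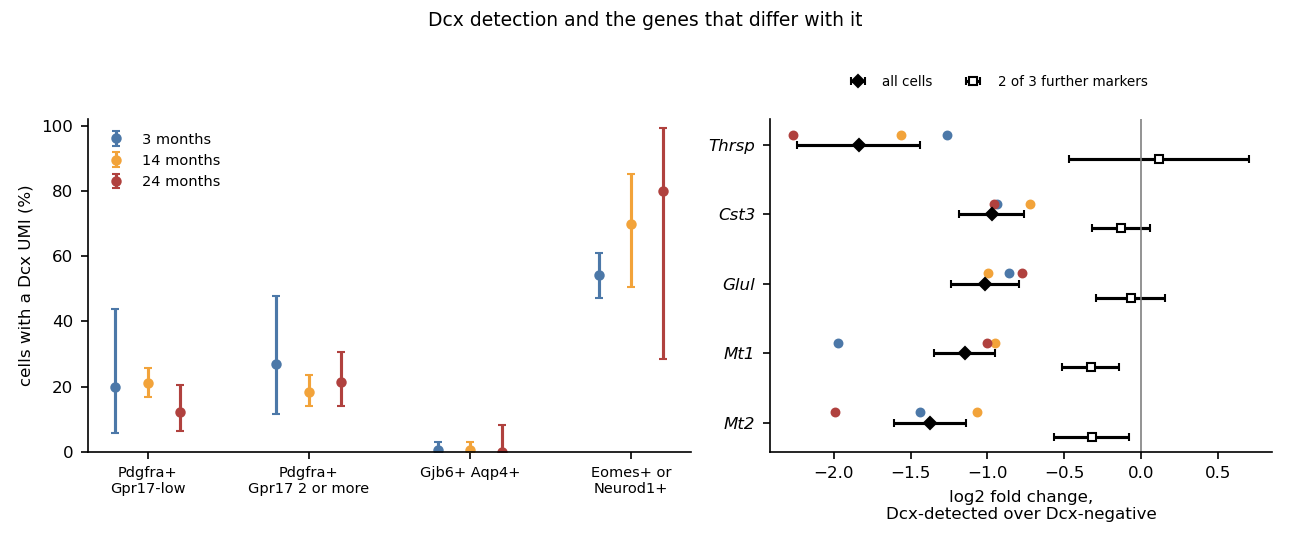
Left, percentage of cells with a Dcx UMI in 4 classes of DG cells at 3, 14 and 24 months, with exact 95% binomial intervals (counting error). Right, log2 fold change of Dcx-detected over Dcx-negative OPCs for the 5 genes below the adjusted p limit, with filled diamonds and bars for the fit over the 3 libraries (± SE), coloured points for each library and open squares for the fit over cells with at least 2 of the 3 further OPC markers, which lies within 0.33 of 0 on the log2 scale for each gene.

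Dcx-detected and Dcx-negative OPCs were then compared within libraries, to ask whether the cells with the transcript differed otherwise. UMIs were summed per library and class, giving 6 sums, and fitted with edgeR's quasi-likelihood test with the library as a block. Of 8602 genes 0 were higher (0.0%) and 5 were lower (0.0581%) in Dcx-detected cells at a Benjamini-Hochberg adjusted p under 0.05, and 184 had an unadjusted p under 0.05. The 5 were Mt1 and Mt2, the metallothioneins, Glul, glutamine synthetase, Cst3, cystatin C, and Thrsp, a regulator of lipid synthesis.

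Mt2 showed the pattern in each library. It stood at 98.6 CPM in Dcx-detected and 327 CPM in Dcx-negative cells at 3 months, 150 and 317 CPM at 14 months, and 105 and 444 CPM at 24 months. The classes did not overlap, and the fit gave a log2 fold change of -1.37 ± 0.23 (SE, 3 libraries per class, edgeR adjusted p = 2.83e-05). Mt1 fell by 1.15 ± 0.20 on the log2 scale (edgeR adjusted p = 2.83e-05), from 1252, 942 and 1227 CPM in Dcx-negative cells to 296, 485 and 606 CPM. Cst3 fell by 0.97 ± 0.21, Glul by 1.01 ± 0.22 and Thrsp by 1.84 ± 0.40 (edgeR adjusted p = 0.00874 each).

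The 17 cells with fewer than 2 of the further OPC markers held an uneven part of these UMIs. All 4, 75 and 12 Dcx-detected cells had at least 2 of the 3 markers, so each of the 17 was Dcx-negative. They held 14 of 25, 267 of 485 and 56 of 197 Mt2 UMIs at 3, 14 and 24 months, 54 of 94, 659 of 1457 and 130 of 568 of Mt1, and 10 of 13, 92 of 129 and 27 of 41 of Thrsp. Of the astrocyte filament gene Gfap they held 3 of 3, 38 of 43 and 14 of 14 UMIs. Without them Mt2 stood at 98.6 CPM in Dcx-detected and 137 CPM in Dcx-negative cells at 3 months, 150 and 129 CPM at 14 months, and 105 and 325 CPM at 24 months. The order thus turned at 14 months, while at 24 months, with 12 Dcx-detected cells, the classes still lay apart. Among the 459 cells with at least 2 markers, edgeR called 0 of 8460 genes (0.0% in each direction), with 153 at an unadjusted p under 0.05. Mt2 then differed by -0.32 ± 0.24, Mt1 by -0.33 ± 0.18, Cst3 by -0.13 ± 0.19, Glul by -0.07 ± 0.23 and Thrsp by 0.12 ± 0.59 on the log2 scale.

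No gene of the lists passed in this comparison. The 13 tested astrocyte and radial stem cell genes had a median log2 fold change of -0.69, which was -0.02 over the 8 genes tested among cells with at least 2 markers. All 18 OPC identity genes were tested and 0 passed in either direction, with a median log2 fold change of -0.02 against -0.03 over all genes tested. As only 0.0% of all genes were higher and 0.0581% lower, a count of 0 says little about any list. Of the neuroblast and immature neuron genes 0 passed as well. Tubb3, the neuronal tubulin, stood at 0, 274 and 369 CPM in Dcx-detected against 171, 323 and 313 CPM in Dcx-negative cells. Sox11, a transcription factor of young neurons, differed by 0.11 (adjusted p = 1.0, edgeR). At 3 months 1 cell held 8769 of the 20288 UMIs of the Dcx-detected sum, and G2/M genes stood at 16759 CPM there against 911 CPM in Dcx-negative cells. Without the 3-month library the same 5 genes were called. With 4 and 12 Dcx-detected cells at 3 and 24 months the depth limits this comparison: in simulated data of the same size the fit called 24% of genes changed by 1 log2 unit and 70% of those changed by 2.

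The cells of the 3 ages were compared next. With 1 library per age no test was possible, so a gene was counted as past the limit when its log2 ratio of CPM exceeded 1 in size and its UMIs at both ages together came to 50 or more. At 24 over 3 months 90 of 2367 genes were higher (3.8%) and 42 lower (1.77%), at 14 over 3 months 411 of 5992 were higher (6.86%) and 313 lower (5.22%), and at 24 over 14 months, where both libraries are deep, 55 of 6734 were higher (0.817%) and 100 lower (1.49%). The balance of directions depended on the pseudocount added to the UMIs, 0.5 here: with 1 it was 70 higher and 47 lower, 211 higher and 418 lower, and 60 higher and 76 lower. Other settings moved the balance over 3 months towards higher genes. A minimum of 200 UMIs gave 8 higher and 2 lower, 31 and 3, and 2 and 3. Thinning to 1500 UMIs gave 28 and 3, 231 and 103, and 14 and 48. Among cells with at least 2 of the 3 further markers 84 were higher and 39 lower of 2299 genes, 393 and 316 of 5839, and 59 and 87 of 6587. The first 2 comparisons share the 20 cells of 3 months and are not independent. In simulated counts for 24 over 3 months, 2.45% of unchanged genes passed 2-fold. The simulation held counting error (Poisson) only, without spread between cells or pools, so the share in real data could be higher. Of the 18 OPC identity genes 0 passed in any of the 3 comparisons, with median log2 ratios of 0.05, 0.05 and 0.07 against -0.01, -0.05 and -0.01 over all genes tested. As 5.58%, 12.1% and 2.30% of all genes passed in either direction, a count of 0 in a list of this size says little about the list.

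Of the matrix genes 0 of 10, 0 of 10 and 0 of 11 passed in the same order of comparisons, with the same reservation. Bcan, the brevican gene, stood at 1645, 1297 and 1325 CPM at 3, 14 and 24 months, and Ptprz1, a proteoglycan phosphatase, at 1921, 1818 and 1753 CPM. Serpine2 ran from 3081 to 2861 and 2502 CPM, a log2 ratio of -0.30 at 24 over 3 months (95% counting interval -0.49 to -0.11). Vcan, the versican gene, ran the other way, from 254 to 308 and 433 CPM (0.74, 0.15 to 1.46).

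Of the growth factor receptor and signalling genes 0 of 7 passed the 2-fold limit at 24 over 3 months, 0 of 12 at 14 over 3 months and 0 of 16 at 24 over 14 months, beside 5.58%, 12.1% and 2.30% of all genes in either direction. Pdgfra stood at 1126, 837 and 916 CPM. Ccnd1, the cyclin that answers to growth factors, was at 607, 597 and 469 CPM. Of the transmitter receptor and channel genes 0 of 9, 2 of 15 and 0 of 16 passed beside the same shares. Both were lower at 14 over 3 months, as were 5.22% of all genes, the GABA receptor subunit gene Gabrb1 (121, 61.7 and 65.8 CPM at the 3 ages) and the potassium channel gene Kcna2 (77.3, 33.7 and 27.9 CPM), from 11 and 7 UMIs at 3 months. The AMPA receptor subunit gene Gria2 stood at 585, 516 and 582 CPM and the neurexophilin gene Nxph1 at 651, 499 and 429 CPM.

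Of the Notch and Id genes 0 of 8 passed 2-fold at 24 over 3 months, 0 of 13 at 14 over 3 months and 1 of 13, Id3, at 24 over 14 months, beside 5.58%, 12.1% and 2.30% of all genes in either direction. Id2, which stayed within the limit, stood at 707, 537 and 369 CPM, with log2 ratios of -0.94 (-1.35 to -0.50) at 24 over 3 months and -0.54 (-0.78 to -0.31) at 24 over 14 months. Id3 was at 88.3, 69.8 and 27.9 CPM (-1.28, -2.24 to -0.52 at 24 over 14 months). Id4 gave 4, 76 and 18 UMIs (44.2, 44.2 and 35.9 CPM) and Id1 0, 5 and 1 UMIs. The Notch target Hes5 stood at 276, 340 and 307 CPM.

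The genes with the highest ratios of 24 over 3 months by the naming rule were Gpd1, Gng11, Ubl3, Xist, Pcsk2, Drap1, Sec61g, Tubb3, Jund and Gnai2. Gpd1, the cytosolic glycerol-3-phosphate dehydrogenase gene, gave 6, 316 and 129 UMIs or 66.3, 184 and 257 CPM at 3, 14 and 24 months, a log2 ratio of 1.85 (0.80 to 3.43) over 3 months and 0.49 (0.18 to 0.79) over 14 months. Gng11, a G protein gamma subunit gene, went from 66.3 to 182 and 241 CPM (1.76, 0.70 to 3.34). Pcsk2, a prohormone convertase gene, went from 66.3 to 125 and 188 CPM (1.39, 0.33 to 2.98). In SVZ cells chosen by the same rule with at least 2 of the 3 further markers, which come from the same mice, 7 of these 10 genes differed in the same direction: Gpd1 by 2.78 (1 against 33 UMIs), Gng11 by 2.15 and Pcsk2 by 0.98. Of the 10 lowest genes 4 did so, and at 14 over 3 months 1 of the 5 highest and 2 of the 5 lowest. Xist, a gene of sex makeup, was among the 7. The share of all genes with the same direction in both regions was not measured, so these counts do not show shared age differences.

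Tubb3 had a higher sum in both older libraries. It was detected in 5 of 20, 232 of 358 and 60 of 98 cells and summed to 132, 313 and 321 CPM, a log2 ratio of 1.22 (0.43 to 2.26) at 24 over 3 months and 0.04 (-0.23 to 0.29) at 24 over 14 months. Among the chosen cells of 3 months the level was lowest in the 10 cells with 1 Gpr17 UMI (47.2 CPM). In cells without Gpr17 Tubb3 stood at 207, 300.1 and 313 CPM, a log2 ratio of 0.53 at 24 over 3 months, within 2-fold. Outside the limit the classes differed, with 340.1, 252 and 288 CPM in cells with 2 Gpr17 UMIs. Cells with 3 to 9 UMIs had 109.5, 241 and 201 CPM, again lowest at 3 months. Other genes of young neurons did not move with it: Stmn1 stood at 320, 255 and 110 CPM (-1.56, -2.22 to -0.84 at 24 over 3 months) and Stmn2 was at 0, 4 and 0 UMIs. Of 11 neuroblast genes measured, Tubb3 was the only 1 higher and Stmn1 the only 1 lower past 2-fold at 24 over 3 months, beside 3.8% and 1.77% of all genes.

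**Figure D4:**
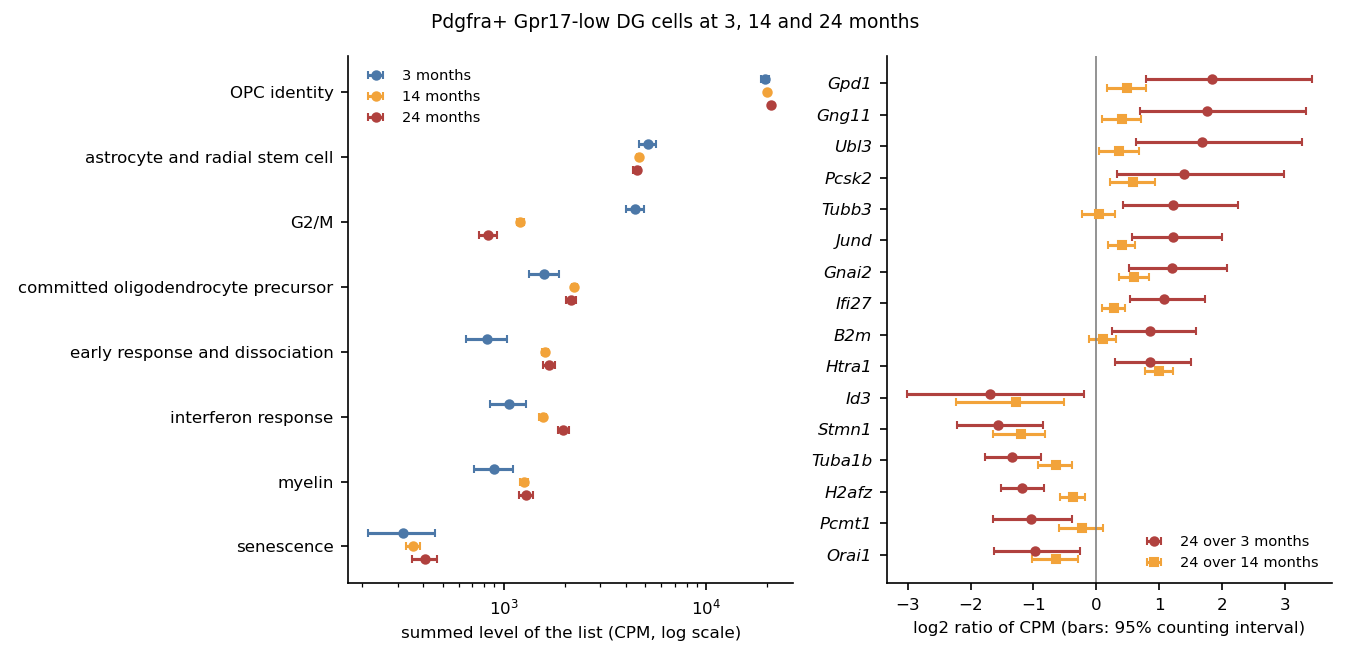
Left, summed level in CPM (log scale) of 8 gene lists in the Gpr17-low DG OPCs at 3, 14 and 24 months. Right, log2 ratio of CPM for 16 genes at 24 over 3 months (circles) and 24 over 14 months (squares). Bars are 95% counting intervals for 1 library per age, wider against the 20 cells of 3 months, and the G2/M sum at 3 months is mostly 1 cell.

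Interferon response genes were higher with age in sum. The list of 25 summed to 1060, 1560 and 1967 CPM at 3, 14 and 24 months. Ifi27, an interferon-induced mitochondrial protein gene, stood at 298, 531 and 642 CPM (1.08, 0.54 to 1.73 at 24 over 3 months), B2m, the light chain of MHC class I, at 243, 416 and 447 CPM (0.85, 0.25 to 1.58), and the class I heavy chain gene H2-K1, with 4 UMIs at 3 months, at 44.2, 75.0 and 106 CPM (1.10, -0.18 to 3.19). The more abundant heavy chain gene H2-D1 stood at 320.2, 322 and 389 CPM (0.26, -0.29 to 0.90). Of these 4 genes, the only ones of the list measured at 24 over 3 months, Ifi27 and H2-K1 were past 2-fold, beside 3.8% of all genes. At 14 over 3 months 0 of 5 passed, and at 24 over 14 months 1 of 9 beside 0.817% of all genes, Ifit3 at 71.8 against 24.4 CPM (1.56, 0.87 to 2.23).

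The rest of the interferon list was uneven among cells. The 21 genes other than Ifi27, B2m, H2-D1 and H2-K1 summed to 155, 216 and 383 CPM, and at least 1 UMI of them was found in 45%, 53.4% and 70.4% of cells. At 24 months 3 cells held 65 of the 192 UMIs, with 30 in a single cell. The SVZ cells with at least 2 markers had 1481, 1555 and 1921 CPM of the whole list at the 3 ages.

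Early response genes, which also answer to tissue dissociation, were lower at 3 months than later, at 828, 1601 and 1668 CPM in sum. Fos had 0, 225 and 87 UMIs, at least 3.95-fold higher at 14 and 5.24-fold higher at 24 than at 3 months against a floor of 3 UMIs per library sum. Jun stood at 188, 522 and 433 CPM (1.17, 0.49 to 2.01 at 24 over 3 months) and Jund at 210, 377 and 499 CPM (1.21, 0.58 to 2.01). Of the 4 genes measured at 24 over 3 months, Fos, Jun and Jund were past 2-fold, beside 3.8% of all genes higher. At 14 over 3 months 5 of 11 were higher and 1, Ier3, was lower, beside 6.86% and 5.22% of all genes. At 24 over 14 months 0 of 12 were higher and 1, Fosb, was lower, beside 0.817% and 1.49%. The part of tissue handling in these levels was not tested.

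Between the deep libraries of 14 and 24 months, Htra1, a secreted serine protease gene, stood at 273 and 547 CPM (1.00, 0.78 to 1.22), with 298 CPM at 3 months. Sox3, a progenitor transcription factor gene, gave 52 and 51 UMIs from unequal numbers of cells, or 30.3 and 102 CPM (1.75, 1.16 to 2.34). Sparc, a matrix glycoprotein gene, was at 43.6 and 114 CPM (1.39, 0.86 to 1.90). Stmn1, among the 10 lowest, stood at 255 and 110 CPM (-1.20, -1.65 to -0.81). In the SVZ cells with at least 2 markers Htra1 differed by 1.44 and Stmn1 by -1.16 over the same ages, and 6 of the 10 highest and 8 of the 10 lowest named genes had the same sign, many from fewer than 20 UMIs. Here too the share of all genes with the same sign was not measured.

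Cell cycle genes showed how few cells stand behind the 3-month level. The G2/M list summed to 4461, 1209 and 838 CPM at 3, 14 and 24 months. At 3 months 1 cell held 330 of the 404 UMIs (81.7%), and without it the level was 905 CPM. That cell had 8769 UMIs, 1 of Dcx and 1 of Gpr17, and carried 14 of 15 UMIs of the topoisomerase gene Top2a, 20 of 20 of Ube2c, a ubiquitin enzyme of mitosis, and 38 of 47 of Hmgb2. At 14 months a cell with none of the 3 further markers held 308 of 2078 G2/M UMIs (14.8%) and 22 of 38 of Ube2c, and without it the level was 1037 CPM. At least 2 UMIs of Top2a, Ube2c and Birc5 together were found in 1 of 20, 5 of 358 (1.40%) and 0 of 98 cells (0 to 3.69%). Mki67, the proliferation antigen gene, was detected in 1, 21 and 5 cells (5.0%, 5.87% and 5.10%), against 2 of 195, 0 of 188 and 0 of 43 of the cells with Gjb6 and Aqp4. A share of dividing cells that differed with age was not detectable at this depth.

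Without that cell the lower genes of 24 over 3 months numbered 28 of 2321 in place of 42, and the higher ones remained 90 in number. Tuba1b, at 696, 432 and 275 CPM, drew 35 of its 63 UMIs at 3 months from it and stood at 342 CPM without it. H2afz, a histone variant gene, was at 1126, 645 and 497 CPM, and at 746 CPM without it. Hmgb2 and Hjurp, named among the lowest at 14 over 3 months, changed sign to 0.08 and 0.01 without it. Without the 14-month cell as well, which held 54 of 211 Hmgb2 UMIs, Hmgb2 stood at 110 CPM at 3 and 92.0 CPM at 14 months, so that its sign rests on single cells, and Hjurp at 61.1 and 65.0 CPM.

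DG cells were finally compared with SVZ cells of the same mice chosen by the same rule, 19, 24 and 44 cells at 3, 14 and 24 months. The cells differed in sex makeup, with Xist found in 10.0%, 33% and 55.1% of the DG and 52.6%, 54.2% and 56.8% of the SVZ cells, and its part in the calls was not tested. edgeR with the age, that is the pool of mice, as a block called 376 of 9299 genes higher in the DG (4.04%) and 685 lower (7.37%). Of the 18 OPC identity genes 14 were higher in the DG. Among the named higher genes were Gja1 and the growth factor gene Vegfa (99.4, 54.1 and 63.8 CPM against 0, 6.65 and 18.4 CPM, log2 fold change 2.48 ± 0.53, edgeR adjusted p = 7.65e-05), and the lowest were Dlx1, Dlx2 and Dlx6os1 of the inhibitory neuron lineage, with Dlx1 at 0 UMIs in each DG library and 298, 266 and 199 CPM in the SVZ. In the SVZ 7, 3 and 9 of the chosen cells had none of the 3 further markers. With at least 2 of the 3 required in both regions (12, 20 and 35 SVZ cells and 459 DG cells), 8 of 8887 genes were higher in the DG (0.09%) and 59 lower (0.664%), 29 of the 59 being ribosomal protein genes. Xist was itself among the 59 (-0.80 ± 0.16, edgeR adjusted p = 0.00462).

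In this stricter comparison all levels below are those of cells with at least 2 markers in both regions. Of 18 OPC identity genes 0 passed, beside 0.09% of all genes higher and 0.664% lower. The median of the list was 0.20 against 0.03 over all genes tested. As few genes passed and the cells were chosen by OPC markers in both regions, the count of 0 says little about the list. The genes higher in the DG were Nrn1, Igfbp2, Ntsr2, Adm, Cask, Eno1, Clu and Bcan. Igfbp2, an insulin-like growth factor binding protein gene, had 0, 4 and 6 UMIs in the SVZ cells (0, 34.9 and 33 CPM) against 93.0, 104 and 202 CPM in the DG cells, a log2 fold change of 2.37 ± 0.38 (SE, 3 libraries per region, edgeR adjusted p = 0.000161). Nrn1, the neuritin gene, had 0, 0 and 2 UMIs in the SVZ against 2, 99 and 31 in the DG (3.25 ± 0.74, edgeR adjusted p = 0.0158). The regions did not overlap for Igfbp2, also with the 3-month SVZ value at the 53.5 CPM that 3 UMIs would give, while Nrn1 at 3 months was too sparse in both regions to compare.

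Eno1, the glycolytic enolase gene, stood at 1070, 957 and 980.1 CPM in the DG and 839, 480 and 374 CPM in the SVZ (0.98 ± 0.17, edgeR adjusted p = 0.000332). Bcan was at 1604, 1320 and 1349 CPM in the DG and 1124, 856 and 892 CPM in the SVZ (0.59 ± 0.14, edgeR adjusted p = 0.0306) and was the only 1 of 12 tested matrix genes that passed. Clu and Ntsr2, both also astrocyte genes, were higher by 0.70 ± 0.16 and 1.46 ± 0.31 (edgeR adjusted p = 0.0201 and 0.00659). They were the 2 higher of 8 tested genes of the astrocyte and radial stem cell list, whose median was 0.49, while 0.09% of all genes were higher. The list summed to 4151, 3961 and 4017 CPM in the DG cells against 3801, 2865 and 2626 CPM in the SVZ cells. Igfbp2 stood at 666, 667 and 289 CPM in the DG cells with Gjb6 and Aqp4. The part of astrocyte RNA in the higher genes was not tested.

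Among the lower genes, Egr1, an immediate early transcription factor gene, had 0, 20.2 and 12.4 CPM in the DG and 53.5, 349 and 204 CPM in the SVZ (-4.12 ± 0.33, edgeR adjusted p = 5.07e-12). At 3 months this rests on 0 against 3 UMIs, too few to compare. Ier2 was lower by the same sign at each age (-2.11 ± 0.27, edgeR adjusted p = 1.69e-06). Fos and Junb leaned on the 14-month SVZ library, which held 821 and 489 CPM against 160 and 49.5 CPM at 24 months. Of 14 early response genes tested 4 were lower, beside 0.664% of all genes.

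Hes5, a Notch target, and Hes6, a relative of the Hes family, were the 2 genes of 14 in the Notch and Id list that passed, both lower in the DG, beside 0.664% of all genes. Hes5 stood at 279, 350.1 and 301 CPM in the DG and 571, 681 and 556 CPM in the SVZ (-0.95 ± 0.16, edgeR adjusted p = 0.00041), with no overlap between regions. Hes6 was lower by 1.24 ± 0.28 on the log2 scale (edgeR adjusted p = 0.0151), with 86.5 against 93.6 CPM at 24 months. Ccnd2, a cyclin of neural progenitors, and Stmn1 were lower over the 3 ages (-2.66 ± 0.27 and -2.35 ± 0.24, edgeR adjusted p = 5.18e-09 each), but stood at 163 against 125 and 326 against 268 CPM at 3 months. Cell cycle genes moved with them. Of 26 tested G2/M genes 4 were lower and 0 higher, with a list median of -1.61. Of 22 S phase genes 1 was lower, with a list median of -0.27. The part of dividing cells in the lower genes was not tested.

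**Figure D5:**
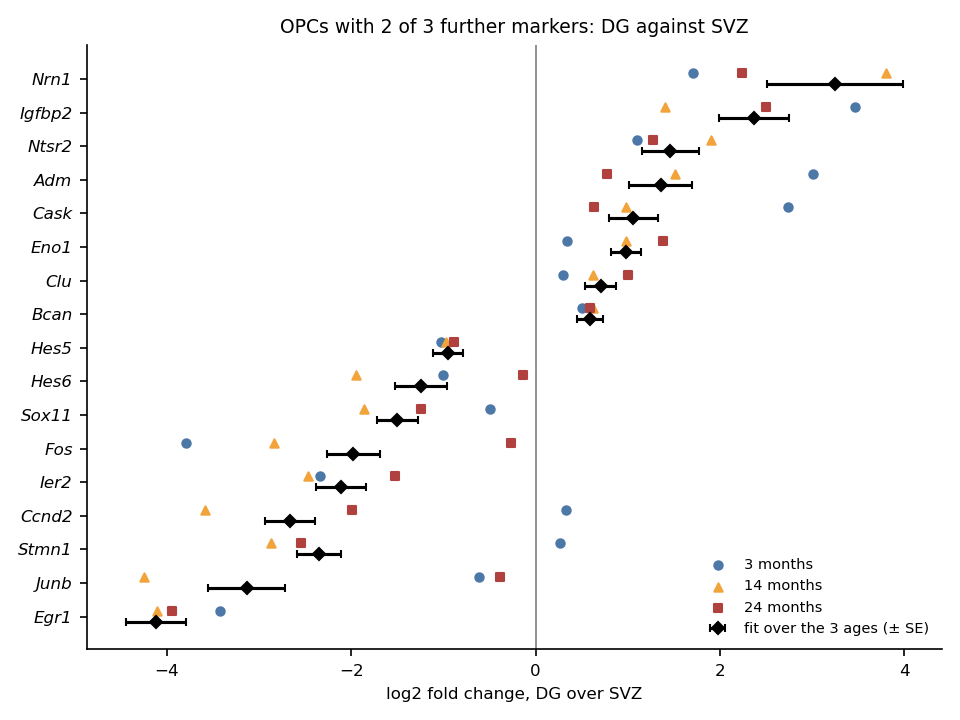
Log2 fold change of DG over SVZ OPCs with at least 2 of the 3 further markers for 17 genes, each point 1 age and the black diamond the edgeR fit over the 3 ages (± SE). Hes5, Egr1 and Ier2 lie left of 0 at each age, Egr1 at 3 months from 0 against 3 UMIs, Bcan, Eno1 and Igfbp2 right of it, and the 14-month value sets Junb apart.

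Neuroblast RNA moved with this comparison. The neuroblast list summed to 3640, 6699 and 4140 CPM in the SVZ cells against 3604, 3412 and 3210 CPM in the DG cells, with Tubb2b, its most abundant gene in the DG, at 785, 1109 and 815 against 756, 705 and 793 CPM (edgeR adjusted p = 0.734). The inhibitory lineage list summed to 321, 961 and 688 CPM against 244, 211 and 245 CPM. Dlx2, which OPCs should lack, had 0, 16 and 14 UMIs in the SVZ cells and 0, 0 and 0 in the DG cells, and 5 of 16 tested neuroblast genes were lower in the DG, beside 0.664% of all genes. The part of neuroblast RNA in the lower genes was not tested. Leaving out the 14-month libraries left 0 calls by edgeR, with 252 of 4999 genes at an unadjusted p under 0.05, and DESeq2 called 1 higher and 5 lower gene over all 3 ages.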

How the data were processed

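Raw counts were deposited by the authors as gene by barcode matrices of UMIs, made with Cell Ranger (3.0.2, mm10, per the labels and the file headers) from Chromium 3' libraries of GFP+ cells. The counts were used as deposited. UMIs of the chosen cells were summed per library, and CPM is relative to that sum. The members and gene lists were chosen with earlier results of these data known. Differences with replicates were tested with edgeR 4.0.16 (TMM, glmQLFit, glmQLFTest; at least 30 UMIs over the sums; Benjamini-Hochberg) in R 4.3.3, with DESeq2 1.42.0 as an alternative. For both tests the block is the pool of mice, which the labels and methods give as shared. Deviations of paired sums correlated weakly (0.02 to 0.07 for Dcx classes, 0.01 to 0.08 for regions). Ages were compared as log2 ratios with a pseudocount of 0.5 UMI and exact conditional binomial 95% intervals, with no test. Expected shares at 1500 UMIs are hypergeometric. Doublets were scored with Scrublet (scanpy 1.11.5, expected rate 0.05), cell cycle lists came from Seurat 5.3.0, and other values from Python 3.11.15, numpy 2.4.6, scipy 1.17.1, pandas 2.3.3 and matplotlib 3.10.9. Genes named were those of the rule and lists; the 10 highest and lowest ratios of 24 over 3 months with at least 100 UMIs and the same sign at 14 months; the 5 highest and lowest of 14 over 3 months; called genes of the Dcx and region tests with the same sign in each library (regions: average log2 CPM of at least 5); and the most abundant genes. Genes of 24 over 14 months and of the stricter region comparison were added after the data were seen, as were some singled out by name, such as Id2, Vcan and Serpine2 within their lists and Dlx2. The fits were tested on simulated counts. Pools are not separate animals. With the pool as a block, p-values measure how the difference within a pool varied over the 3 pools. As each pool was also a different age, a difference that changed with age is part of that spread.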

Additional observations from a re-analysis of the deposited data

Results flagged for a closer look

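The olfactory bulb libraries were not used in any comparison, but the same rule found 4 cells there at 3 months, 4 at 14 months and 4 at 24 months, of 443, 592 and 310 barcodes within the limits. There was no control library against which to set these counts, and they are given as values.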

How the results depend on the processing

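Counts past 2-fold rest on the UMI minimum and on the 20 cells of 3 months. For 24 over 3, 14 over 3 and 24 over 14 months a minimum of 20 UMIs gave 709, 2029 and 585 genes, a minimum of 200 gave 10, 34 and 5, and thinning to 1500 UMIs gave 31, 334 and 62, with the cause not tested. Cells with 0 UMIs of Gpr17 gave 46 and 477 genes over 3 months and were 1.42%, 18.0% and 14.1% of the barcodes within the limits. A pseudocount of 1 turned the split over 3 months from 90 higher and 42 lower to 70 and 47, and at 14 months from 411 and 313 to 211 and 418. Centring on the median gene gave 456 and 251 at 14 months, and at 24 over 14 months a pseudocount of 1 gave 60 higher and 76 lower.

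At least 2 Dcx UMIs were found in 0.0%, 1.12% and 4.08% of cells, and thinned shares were 7.40% and 3.95% at the older ages. The share with at least 3 G2/M UMIs (60.0%, 71.5% and 70.4%) was 25%, 40.8% and 40.8% at a limit of 5 and 18.1%, 15.9% and 13.9% when thinned. The Dcx comparison's 5 calls numbered 1 with DESeq2 (1 of the 5), 0 in cells with 2 further markers, 0 when thinned, 3 at a limit of 2 Dcx UMIs (2 of the 5), 7 without Scrublet calls (all 5, with Gja1 and Gstm1) and 0 to 5 leaving out each library: 0 without 24 months, and without 14 months 4, of which 2 were higher and 2 were among the 5. Thrsp changed sign to 0.12 among cells with 2 further markers, where 17 cells are removed.

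The region comparison's 1061 genes became 353 with DESeq2, 156 when thinned, 525 to 923 leaving out each age (525 without 24 months and 652 without 14) and 67 with 2 further markers. Those 67 became 39 with no replicate block, 6 with DESeq2 and 0 to 132 leaving out each age, with 132 without 3 months, 0 without 14 and 7 without 24. Without the block the Dcx comparison had the same 5 calls and the region comparison 954 (309 higher and 645 lower), of which 905 were shared. Over 14 against 3 months, Hmgb2 (0.056), Cdkn2d (0.30) and Erdr1 (0.17) changed sign in cells without Gpr17, and Hmgb2 (0.083) and Hjurp (0.011) without the 3-month cell with most G2/M UMIs, which held most of their UMIs. The cause of the other changes was not tested. Depth limits all 3-month values.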

Other observations

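By UMI share, the most abundant nuclear gene of the cells that codes for no ribosomal protein was Malat1, a nuclear non-coding RNA, at 99440, 96909 and 101159 CPM at 3, 14 and 24 months. It was followed by Apoe, the lipid carrier gene, at 10180, 8079 and 8115 CPM, and by Ubb, Dbi and Ckb. Cspg5, a brain proteoglycan gene, and Olig1 were also among the 10 most abundant.

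Cell cycle inhibitors linked to senescence were sparse. Cdkn2a gave 1, 40 and 28 UMIs in 1, 29 and 17 cells, a log2 ratio of 1.27 (95% counting interval 0.51 to 2.00) at 24 over 14 months. Cdkn1a gave 0, 43 and 25 UMIs, a log2 ratio of 1.01 (0.22 to 1.74). These were the 2 of 7 measured genes of the senescence list past 2-fold, both higher, beside 0.817% of all genes. At 14 over 3 months 1 of 5 was higher, beside 6.86%, and at 24 over 3 months 0 of 1. At 24 over 14 months Cdkn1b and Trp53 differed by 0.30 and -0.26. At 3 months Cdkn1a had no UMI in 20 cells, so the level at 24 months was at least 1.51-fold higher than the floor of 3 UMIs.

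Neuropeptide Y (Npy) gave 0, 129 and 39 UMIs, at least 2.27-fold higher at 14 and 2.35-fold higher at 24 than at 3 months against a floor of 3 UMIs per library sum, although OPCs with 2 or more Gpr17 UMIs also carried it at 17.1, 59.3 and 81.4 CPM and cells with Eomes or Neurod1 had none. Evi5, a cell cycle regulator, gave 0, 148 and 37 UMIs. Calb2, the calretinin gene, stood at 55.2, 125 and 55.9 CPM.

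Of the lipid genes, Scd2, the stearoyl-CoA desaturase gene of oligodendroglia, stood at 199, 322 and 441 CPM (1.11, 0.46 to 1.93 at 24 over 3 months) and was the 1 higher of 3 genes of the lipid list measured there, beside 3.8% of all genes. At 14 over 3 months 1 of 15 was higher and 1 lower, beside 6.86% and 5.22%, and at 24 over 14 months 0 of 16 passed. Fdps, of cholesterol synthesis, was at 210, 142 and 146 CPM. Ribosomal protein genes summed to 50902, 53151 and 52823 CPM, and 0 of 80 measured passed 2-fold at 24 over 3 months.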
